A study of Mus musculus with 8 samples.

Results

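The levels of 10 genes of the epithelial-mesenchymal transition (EMT) were compared between label-retaining and other biliary cells of the mouse liver. The genes were taken by name from the deposited table of 46603 genes: the transcription factors Zeb1, Zeb2, Snai1, Snai2 and Twist1, the intermediate filament gene Vim, the matrix gene Fn1, the epithelial splicing regulators Esrp1 and Esrp2, and the epithelial transcription factor Ovol1. All 10 were in the table. RNA was sequenced from EGFP+ EpCAM+ CD45- cells, called LLRCs, and from EGFP- EpCAM+ CD45- cells, called non-LRC cells, of the same 4 mice (JV602, JV621, JV624 and JV6314), giving 4 libraries in each group. Every mouse was R26rtTA het/H2B-EGFP het, received dox up to postnatal day 5, and was 8 weeks old at the sort, so both groups share genotype, drug and age. Dox switches on a histone 2B-EGFP fusion that each division dilutes, and the Rosa26 locus that drives the transactivator is active in most cell types, so that induction is not limited to 1 of them. How long a cell keeps the label follows its divisions, which can differ between cell types. Blood cells of such mice are reported by the study to carry EGFP without dox as well.

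In an EMT, epithelial cells give up their junctions and take on the shape, matrix and motility of mesenchymal cells. ZEB, SNAIL and TWIST factors repress epithelial genes such as that of E-cadherin, whereas OVOL factors repress ZEB genes and ESRP proteins keep epithelial patterns of splicing. The same transcription factors, and vimentin, are also part of the normal program of endothelial cells, hepatic stellate cells, fibroblasts and leukocytes, while cholangiocytes, the epithelial cells of the bile ducts, are known for E-cadherin, keratins and EpCAM.

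The total counts were between 7860021 and 9851819 in LLRC libraries and between 4670132 and 8056103 in non-LRC libraries. Where 4 values of a group are given, they stand in the order JV602, JV621, JV624, JV6314. Levels are given as CPM, which are counts divided by the library total after TMM correction for composition, and 3 counts corresponded to between 0.291 and 0.626 CPM. The non-LRC libraries were less alike than the LLRC libraries. Pearson's r of log2 CPM across genes was between 0.628 and 0.792 among the former and between 0.884 and 0.918 among the latter, which is a description only. The non-LRC library of JV621 held counts for 14234 genes against between 16042 and 20430 in the others, and that of JV6314 held 2457 CPM over 17 pancreatic acinar genes against at most 24.3 CPM elsewhere. Of the 20 cholangiocyte markers, all were tested, and Epcam differed by 0.08 on the log2 scale. The list summed to between 67737 and 224172 CPM over the 8 libraries, of which Spp1, the osteopontin gene, made up between 94.9% and 97.5%. Without Spp1 it summed to between 3488 and 7149 CPM, a range that overlaps that of the hepatocyte list (between 3121 and 12255 CPM).

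Among the members tested, the largest difference was in Zeb2, which had few reads in LLRCs and many in non-LRC cells. Vim was lower in LLRCs in each mouse. Zeb1, Fn1, Esrp1 and Esrp2 were read in both groups with overlapping levels, and Snai1, Snai2, Twist1 and Ovol1 did not pass the filter on low counts. Of these, Snai2 held 20 to 62 counts in 3 libraries and 0 in the other 5. By the edgeR quasi-likelihood method with adjustment over the 13605 genes tested, 0 of the 6 members that passed the filter on low counts had an adjusted p below 0.05, beside 0% of all genes tested. At an unadjusted p below 0.05 there were 2 members, Zeb2 and Vim, both lower in LLRCs. Of all genes tested, 5.16% reached that level, 3.56% lower and 1.6% higher. Of the 10 members, 1 (Zeb2) separated the groups, with each LLRC level under each non-LRC level, as in 1.91% of all genes tested, and 0 were separated the other way, as were 2.15%. Within mice, 2 members (Zeb2 and Vim) were lower in the LLRC library in all 4 mice and 0 were higher in all 4, against 5.53% and 7.74% of all genes tested.

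**Figure D1:**
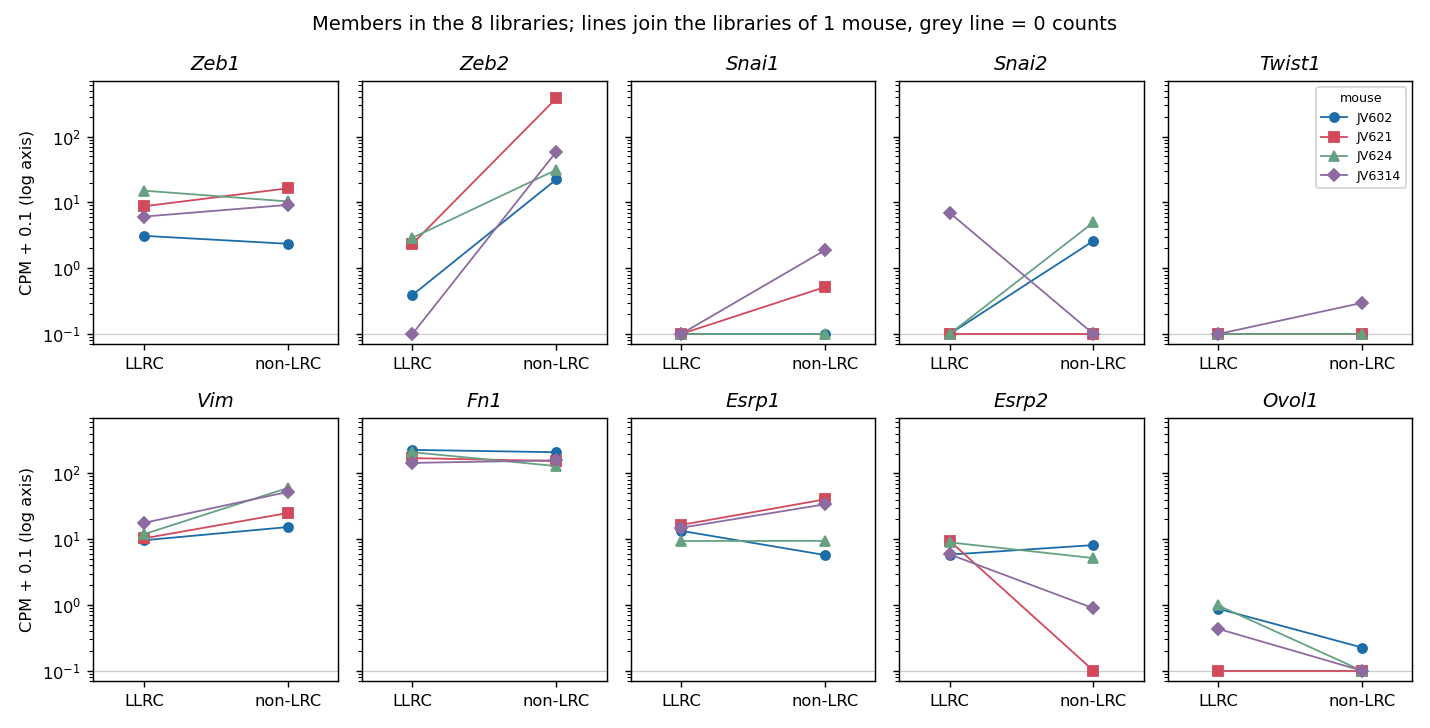
CPM plus 0.1 of each member on a log axis, in the LLRC and the non-LRC library of each of 4 mice, with a line joining the libraries of a mouse and a grey line at 0 counts. Zeb2 lies between 0 and 2.79 CPM among LLRCs and between 22.3 and 383.2 CPM among non-LRC cells, while the levels of the other members overlap between the groups.

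Zeb2 encodes a zinc finger repressor that binds E-box sequences in epithelial genes. It lies on the minus strand of chromosome 2, from 44983632 to 45117395 of GRCm38. Since the data turn most on this gene, the 250 bases before its most upstream RefSeq start are shown, next to those of Snai1, which had almost no reads. Capitals mark the E-box that ZEB and SNAIL proteins recognise, searched as CACCTG or CAGGTG, which are the same site on the 2 strands. The Zeb2 window is chr2:45117443-45117692 (minus strand) and the Snai1 window chr2:167537945-167538194 (plus strand), both of GRCm38.p6 from RefSeq and printed 5′ to 3′ on the strand of the gene. The Zeb2 window lies wholly upstream of the gene as GENCODE annotates it.
Zeb2: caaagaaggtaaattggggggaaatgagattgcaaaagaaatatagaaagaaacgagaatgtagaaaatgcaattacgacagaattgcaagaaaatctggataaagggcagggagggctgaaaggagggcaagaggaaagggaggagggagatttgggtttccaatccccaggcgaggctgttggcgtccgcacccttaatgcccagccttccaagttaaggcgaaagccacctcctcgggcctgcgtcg
Snai1: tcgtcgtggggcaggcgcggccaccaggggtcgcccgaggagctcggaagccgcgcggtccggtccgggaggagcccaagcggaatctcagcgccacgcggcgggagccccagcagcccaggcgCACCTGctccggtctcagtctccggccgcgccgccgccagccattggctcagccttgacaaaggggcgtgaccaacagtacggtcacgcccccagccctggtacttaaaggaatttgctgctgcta
The Zeb2 window held 0 matches and 9 CpG dinucleotides, and the Snai1 window held 1 match and 27 CpG dinucleotides. Over all 32851 windows of this length, 17.22% held a match, and the median was 6 CpG dinucleotides with quartiles of 2 and 16. Of the 10 members, 4 had a window that was read (Zeb2, Snai1, Twist1 and Vim). A further 3 Zeb2 windows, at starts inside the gene, and those of Twist1 and Vim held 0 matches. A match is a description of the letters, and its absence says only that these letters are not in the window.

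The counts of Zeb2 in LLRC libraries were 3, 19, 19 and 0. In the non-LRC libraries of the same mice they were 178, 1835, 198 and 299. Each LLRC library was below each non-LRC library, and the LLRC library of JV6314 held no read of it. As levels these were 0.291, 2.25, 2.79 and 0 CPM in LLRCs, a mean of 1.33 ± 1.39 CPM (SD, n = 4). In non-LRC cells the levels were 22.3, 383.2, 31.3 and 59.0 CPM, a mean of 123.9 ± 173.5 CPM (SD, n = 4). Within mice the log2 difference, with a prior count of 2, was -5.43, -7.25, -3.34 and -7.64, of which the last depends on the prior count because the LLRC library had no read. The non-LRC library of JV621 stood far above the other 3, whose mean was 37.5 ± 19.1 CPM. The log2 fold change of LLRCs over non-LRC cells was -6.56 with a standard error of 1.43 (adjusted p = 0.204 by the edgeR quasi-likelihood method). Without the non-LRC library of JV621 it was -4.83 (adjusted p = 0.180 from the same edgeR test), and without those of both JV621 and JV6314 it was -4.34 (adjusted p = 0.358). The exact permutation test of log2 CPM, two-sided, gave p = 0.029, the smallest that 4 libraries against 4 allow. It reassigns libraries freely across mice and so ignores their pairing.

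Whether Zeb2 passed the threshold depended on the test. Its adjusted p was 1.05e-05 with DESeq2's Wald test, 0.00200 with edgeR's exact test and 0.00104 with edgeR's likelihood ratio test. These tests called 1.65%, 1.17% and 1.26% of all genes, respectively (1.29%, 0.933% and 0.992% as lower in LLRCs), and of the members they called Zeb2 alone. It was 0.622 with limma-voom and 0.360 in the edgeR quasi-likelihood method with the mouse as a block. The log2 fold change was between -7.51 and -4.34 over the 24 alternatives, with adjusted p between 1.05e-05 and 0.663. Zeb2 is on the list of genes that the study drew from these same libraries, so its direction here is no independent evidence. Of the exon bases of Zeb2, 3.30% are shared with Mir5129, on the same strand, and with Zeb2os and Gm27761, on the opposite strand. Reads in the shared bases are ambiguous in counts that ignore strand, and those shared with Mir5129 would be so with strand as well.

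Zeb1, the paralog of Zeb2 and likewise a repressor of epithelial genes, did not separate the groups. The counts of Zeb1 were 31, 73, 102 and 54 in LLRC libraries. They were 18, 78, 65 and 46 in the non-LRC libraries. The groups overlapped, with LLRCs lower in 2 mice and higher in 2. The means were 8.16 ± 5.11 CPM among LLRCs and 9.47 ± 5.75 CPM among non-LRC cells (SD, n = 4 each). The log2 fold change of Zeb1 was -0.21 with a standard error of 0.68 (adjusted p = 0.9999 by the edgeR quasi-likelihood method), and its sign changed when single libraries were left out, so the data give no direction for it.

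The balance of the paralogs was therefore read within each library, a comparison chosen after the values were seen. Zeb1 was the more abundant paralog in every LLRC library and Zeb2 in every non-LRC library, in CPM and likewise per kilobase of exon. No ratio is given, since Zeb2 had 3 counts in the LLRC library of JV602 and 0 in that of JV6314. Zeb2 separates the groups by itself, and this order of the paralogs does not add to the evidence for Zeb2.

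The factors Snai1, Snai2 and Twist1 did not pass the filter and were not tested. Snai1, an early repressor of the E-cadherin gene, had 0 counts in every LLRC library and 0, 2, 0 and 9 counts in non-LRC libraries. Twist1, a basic helix-loop-helix factor of mesenchymal cells, had 0 counts in every LLRC library and 1 count in all non-LRC libraries together, in that of JV6314. Snai2, a relative of Snai1, was uneven within both groups. It had 62 counts in the LLRC library of JV6314 and 0 in the other LLRC libraries. Among non-LRC libraries, those of JV602 and JV624 held 20 and 31 counts and the others 0. No mouse had Snai2 reads in both of its libraries. Zero counts allow a level of up to 3 counts, between 0.291 and 0.441 CPM in LLRC libraries, so that absence was not shown. This limit covers counting error only.

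Vim encodes vimentin, the intermediate filament protein of mesenchymal cells, and lies on the plus strand of chromosome 2 from 13573927 to 13582826. Its counts were 98, 86, 80 and 158 in LLRC libraries, and 121, 119, 379 and 264 in the non-LRC libraries. The levels were 9.50, 10.2, 11.8 and 17.5 CPM among LLRCs and 15.2, 24.8, 59.8 and 52.1 CPM among non-LRC cells. The LLRC library was the lower in every mouse, but the groups overlapped, since the LLRC library of JV6314 was above the non-LRC library of JV602. The means of Vim were 12.2 ± 3.66 CPM and 38.0 ± 21.4 CPM (SD, n = 4 each), a log2 fold change of -1.63 with a standard error of 0.49 (adjusted p = 0.556 by the edgeR quasi-likelihood method). The exact permutation test of log2 CPM, two-sided, gave p = 0.057, again without regard to the pairing. Within mice the log2 difference, with a prior count of 2, was -0.66 in JV602, -1.27 in JV621, -2.31 in JV624 and -1.55 in JV6314. Over the 24 alternatives the log2 fold change stayed between -1.90 and -1.30, with adjusted p between 0.0581 (DESeq2) and 1.00.

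Fn1 encodes fibronectin, a matrix protein that is made by mesenchymal cells and also by hepatocytes. It lies on the minus strand of chromosome 1 from 71585520 to 71653200, and per length of exon it was the most abundant member in both groups. Its counts were 2343, 1440, 1423 and 1296 in the LLRC libraries and 1671, 736, 816 and 799 in non-LRC libraries. Once scaled, the levels overlapped, at 187.7 ± 37.6 CPM among LLRCs and 162.4 ± 33.8 CPM among non-LRC cells (SD, n = 4 each). The log2 fold change of Fn1 was 0.21 with a standard error of 0.26 (adjusted p = 0.9999 by the edgeR quasi-likelihood method). The LLRC library was higher in 3 mice and lower in JV6314. The mean of Fn1 was thus the higher in LLRCs and that of Vim the lower.

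**Figure D2:**
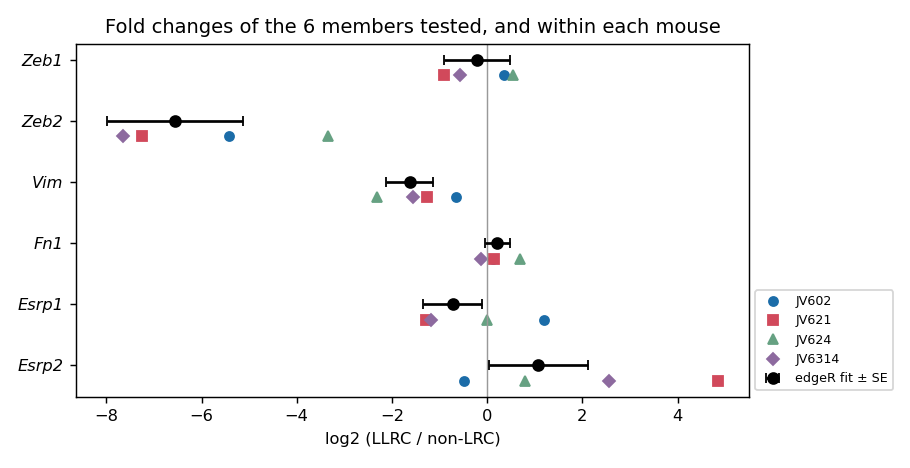
Log2 fold change of LLRCs over non-LRC cells for the 6 members tested, as fitted by edgeR (black points, bars of 1 standard error) and within each mouse (coloured points, prior count of 2). Zeb2, at -6.56, and Vim, at -1.63, lie below 0 in all 4 mice, whereas the mice fall on both sides of 0 for Zeb1, Fn1, Esrp1 and Esrp2.

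The fitted differences of the epithelial members had opposite signs. Esrp1 and Esrp2 encode RNA-binding proteins that set epithelial splice patterns of the same target transcripts. Esrp1 lies on chromosome 4 from 11331933 to 11386783 and Esrp2 on chromosome 8 from 106130319 to 106136974, both on the minus strand. Esrp1 had 137, 138, 63 and 133 counts in LLRC libraries, and 45, 192, 59 and 171 in the non-LRC libraries. Its levels were even among LLRCs (13.4 ± 3.03 CPM) and uneven among non-LRC cells (22.2 ± 17.3 CPM; SD, n = 4 each), where the libraries of JV621 and JV6314 were the higher. The log2 fold change of Esrp1 was -0.72 with a standard error of 0.62 (adjusted p = 0.9999 by the edgeR quasi-likelihood method) and 0.86 without those 2 non-LRC libraries, so its direction rests on them.

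Esrp2 had 59, 79, 60 and 52 counts in LLRC libraries and 64, 0, 32 and 4 in non-LRC libraries. The levels were 7.42 ± 1.94 CPM among LLRCs and 3.46 ± 3.76 CPM among non-LRC cells (SD, n = 4 each). The 2 non-LRC libraries with little Esrp2, those of JV621 and JV6314, were the 2 with the most Esrp1. The log2 fold change of Esrp2 was 1.08 with a standard error of 1.04 (adjusted p = 0.9999 by the edgeR quasi-likelihood method), or 0.19 without those libraries. Of its exon bases, 7.79% are shared with Nfatc3 and 1810019D21Rik on the opposite strand, against 2.01% for Esrp1 with Gm26663, 2.50% for Fn1 with Apol7d and 1.93% for Zeb1 with Gm10125.

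Ovol1, a zinc finger factor known to hold epithelial cells in their state, was read with 8, 0, 6 and 3 counts in LLRC libraries and 1, 0, 0 and 0 in their non-LRC counterparts. It did not pass the filter and was not tested. The LLRC library was the higher in 3 mice, and both libraries of JV621 had 0 counts. Genes that are not in the table overlap 22.0% of its exon bases on the opposite strand.

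To compare genes with each other, the mean CPM was divided by exon length in kilobases. In LLRCs the order was Fn1 (16.1 CPM per kb), Vim (2.58), Esrp1 (2.13), Esrp2 (1.71), Snai2 (0.852), Zeb1 (0.795), Ovol1 (0.143) and Zeb2 (0.0668), followed by Snai1 and Twist1 at 0. Among neighbours in that order, Fn1 was above Vim and Zeb1 above Ovol1 without overlap of the 4 libraries, and the other neighbours overlapped. The place of Snai2 rests on 1 library. In non-LRC cells the order was Fn1 (13.9 CPM per kb), Vim (8.01), Zeb2 (6.21), Esrp1 (3.52), Zeb1 (0.922), Snai2 (0.915), Esrp2 (0.798), Snai1 (0.338), Twist1 (0.0303) and Ovol1 (0.00898), and all neighbours overlapped. Zeb2 was at rank 8 in LLRCs and at rank 3 in non-LRC cells, where its mean rests largely on JV621. Without the non-LRC library of JV621 its mean was 1.88 CPM per kb, at rank 4 under Esrp1 (2.57). With 1 of the other non-LRC libraries left out it was between 7.30 and 7.91 CPM per kb, and with 1 LLRC library left out its LLRC mean was between 0.0424 and 0.0891 CPM per kb.

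**Figure D3:**
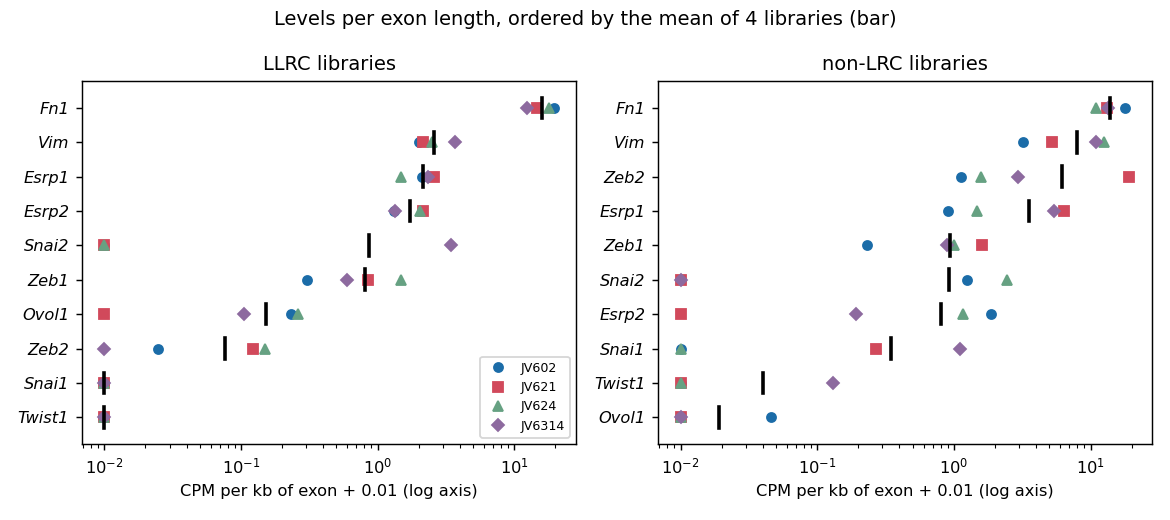
Levels of the 10 members per kilobase of exon (CPM per kb plus 0.01, log axis) in the 4 LLRC libraries (left) and the 4 non-LRC libraries (right), ordered by the mean, which is the black bar. Zeb2 has a mean of 0.0668 CPM per kb in LLRCs and 6.21 CPM per kb in non-LRC cells (1.88 without JV621), while Fn1 leads both orders.

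Other cell types express Zeb2 and Vim, and the lists of their markers were read beside both genes. In such sorted bulk samples, fewer cells of a type and less RNA per cell cannot be told apart. Of 24 endothelial markers, 21 passed the filter. Each of these 21 had a lower fitted level in LLRCs and an unadjusted p below 0.05 in the edgeR quasi-likelihood method (3.56% of all genes tested). Of this list, Pecam1, Cdh5, Tek, Flt1, Eng, Esam and Cldn5 are named by the study as lower in LLRCs in these same libraries. Their direction here is no independent evidence. A marker can also pass the filter through the non-LRC libraries alone. The median log2 fold change of the endothelial list was -3.73, against -0.01 for all genes tested. The list summed to between 51.6 and 120.9 CPM in LLRC libraries and to 410.6, 1898, 964.0 and 1203 CPM in non-LRC libraries. The ranges did not overlap, and the highest sum was in the non-LRC library of JV621, which also had the most Zeb2. Pecam1, the endothelial adhesion molecule CD31, had 9, 42, 1 and 20 counts among LLRCs and 216, 184, 194 and 327 in non-LRC cells.

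Zeb2 amounted to 0.564%, 1.86%, 3.14% and 0% of the endothelial sum in LLRC libraries. In the non-LRC libraries it amounted to 5.43%, 20.2%, 3.24% and 4.90%. The shares were alike in both libraries of JV624 and lower in LLRCs in the other mice. The part of endothelial RNA in the Zeb2 difference was not tested.

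The stellate cell and fibroblast list, of which 12 of 20 markers were tested, had a median log2 fold change of -2.43, with 10 markers lower. By the edgeR quasi-likelihood method 5 lower and 0 higher markers had an unadjusted p below 0.05, beside 3.56% and 1.6% of all genes tested. In 4 markers each LLRC level lay under each non-LRC level, as in 1.91% of all genes tested. The whole list summed to 2521, 5670, 9345 and 9972 CPM among LLRCs and to 3600, 4826, 6528 and 9533 CPM among non-LRC cells. The groups overlapped, and the highest sum was in the LLRC library of JV6314. Rgs5, a pericyte gene with a log2 fold change of 0.57, made up between 48.4% and 92.7% of these sums. Without Rgs5, a choice made after the values were seen, the list summed to 325.1, 650.4, 960.7 and 730.1 CPM among LLRCs and to 784.5, 854.5, 3368 and 2772 CPM among non-LRC cells. In that sum the non-LRC libraries of JV624 and JV6314, the 2 with the most Vim, were the highest. Dcn alone stood at 498.6, 485.9, 2311 and 1815 CPM among non-LRC cells and made up most of each of their sums. Of 8 smooth muscle markers, 2 were tested and both were lower, and the list summed to between 1.18 and 6.62 CPM among LLRCs and between 4.13 and 85.4 CPM among non-LRC cells. Pdgfrb, a receptor of stellate cells and pericytes, was at 0.593 ± 0.487 CPM among LLRCs and 2.57 ± 2.99 CPM among non-LRC cells (SD, n = 4 each), and was at 0 counts in the LLRC library of JV6314 and the non-LRC library of JV621. The part of these cells in the Vim difference was not tested.

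Leukocyte markers, of which 4 of 24 were tested (3 lower and 1 higher), summed to between 38.7 and 141.0 CPM among LLRCs and between 60.6 and 631.0 CPM among non-LRC cells. The highest sum was again in the non-LRC library of JV621, where S100a8, a neutrophil gene, made up 90.4% of it and 60.6 CPM remained without that gene. Ptprc, which encodes CD45, had 5, 34, 14 and 59 counts among LLRCs and 0, 0, 0 and 7 in non-LRC cells. Its log2 fold change was 3.27, while that of Fcer1g, the lowest of the 4 tested, was -3.89 (adjusted p = 0.319 by the edgeR quasi-likelihood method). Of the 4, 1 lower and 1 higher marker had an unadjusted p below 0.05, beside 3.56% and 1.6% of all genes tested. The part of leukocytes in the Zeb2 difference was not tested. The hepatocyte list (21 of 21 tested, 18 lower, 8 of them at an unadjusted p below 0.05, beside 3.56% of all genes tested) had a median log2 fold change of -1.11, from Apoa2 (-2.79) and Apoc3 (-2.74), which encode apolipoproteins, to at most 0.74. It summed to between 4573 and 5191 CPM among LLRCs and between 3121 and 12255 CPM among non-LRC cells. Its highest sums, 12255 and 9789 CPM, were in the non-LRC libraries of JV624 and JV6314, which also had the most Vim. Alb, the albumin gene, had a log2 fold change of 0.01. Mesothelial markers (7 of 9 tested, all lower, 1 of them at an unadjusted p below 0.05) summed to between 1002 and 1752 CPM among LLRCs and between 1280 and 3233 CPM among non-LRC cells. Among these 7 is Krt19 (-0.20), which is on the cholangiocyte list too. The cholangiocyte list had 16 of 20 markers higher and 4 lower, with a median of 0.29. Aqp1, a water channel of cholangiocytes that endothelial cells also express, was the lowest of them at -4.07 with a standard error of 0.57 (adjusted p = 0.0809 by the edgeR quasi-likelihood method), with 56, 64, 22 and 66 counts among LLRCs and 241, 719, 529 and 680 in non-LRC cells. The highest of the cholangiocyte list were Ggt1 (1.93) and Cftr (1.43). In that list 1 lower and 1 higher marker had an unadjusted p below 0.05, beside 3.56% and 1.6% of all genes tested. The part of hepatocytes, mesothelial cells and cholangiocytes in the levels of the members was not tested.

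**Figure D4:**
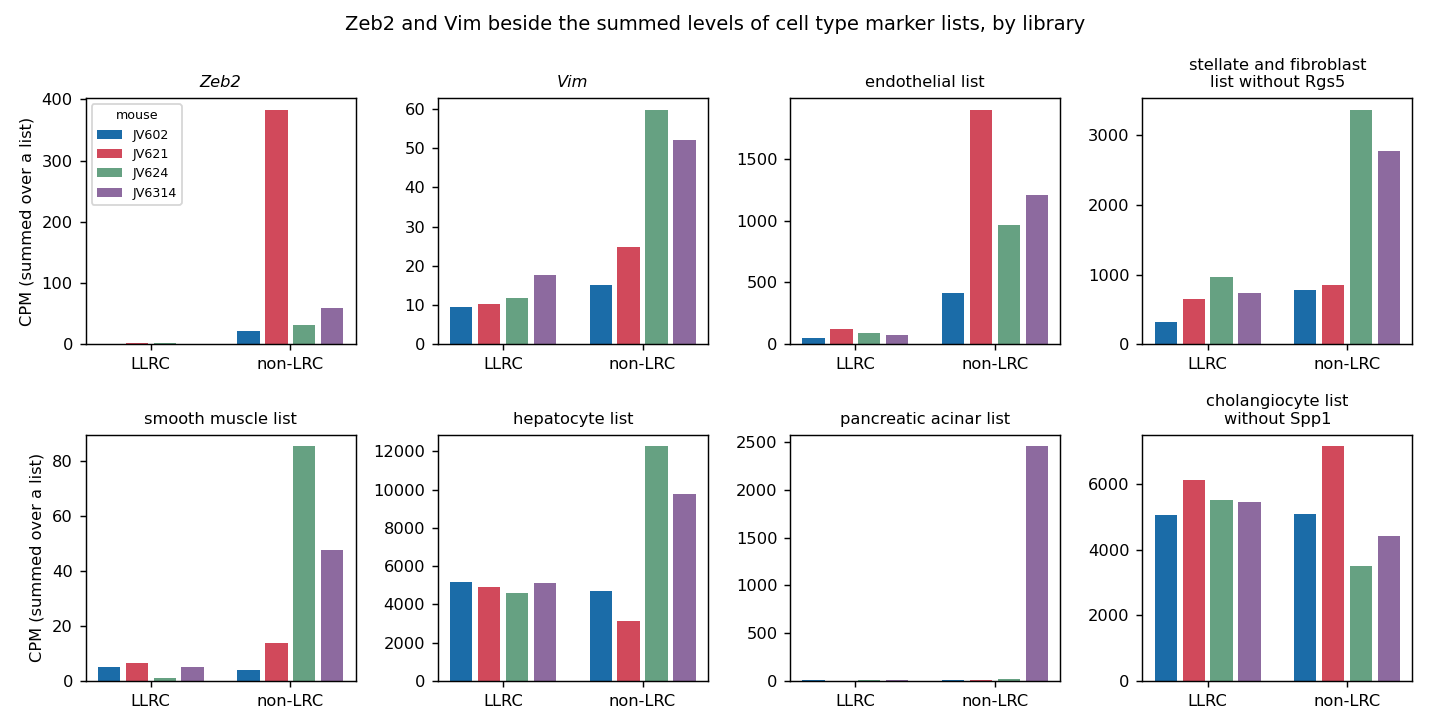
CPM of Zeb2 and Vim and the summed CPM of 6 lists of cell type markers in each library, as bars from 0 that are grouped by LLRC and non-LRC and coloured by mouse. Zeb2 and the endothelial list peak in the non-LRC library of JV621 (383.2 and 1898 CPM), whereas Vim, the stellate and fibroblast list without Rgs5, and the smooth muscle list are highest in the non-LRC libraries of JV624 and JV6314. The cholangiocyte list is drawn without Spp1.

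The genes whose log2 CPM most resembled that of a member over the 8 libraries were named for Zeb2, Vim and Esrp1. For Zeb2 they were Jam2 (Pearson's r = 0.99), Adgrf5 (0.98), Oit3 (0.98), Cyp1a1 (0.98) and Ptprb (0.97). For Vim they were Bst2 (0.98), Cxcl12 (0.98), Glul (0.98), Gchfr (0.97) and Arhgdib (0.97). For Esrp1 they were Fbxo42 and Pmpca (both 0.96), Zbtb5 (0.96), Kazald1 (0.95) and Spcs3 (0.93). Ptprb is itself on the endothelial list, and Jam2 encodes an endothelial junction protein. These correlations, over 8 libraries that share depth and group, are a description with no test.

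The rest of the EMT program was counted over lists of related genes, of which 0 genes had an adjusted p below 0.05 in the edgeR quasi-likelihood method. Of all 13605 genes tested, 6647 had a higher and 6958 a lower fitted level in LLRCs. Of 17 other EMT transcription factors, 7 were tested, with 2 higher, 5 lower and a median log2 fold change of -0.07. They ran from Wwtr1, the TAZ coactivator (-0.74), and Sox4 (-0.23) to Sox9, a factor of biliary identity (0.40), and Tcf3 (0.67), and Tcf4 was at -0.07. Foxc2 and Gsc had 0 counts in every library. Prrx1, a factor of mesenchymal progenitors, had 54 counts and Twist2 had 8, both in the non-LRC library of JV6314 alone, which was also the library with the single Twist1 read and the most Snai1 reads. Hmga2, likewise untested, went the other way on few reads. It had 11, 6, 6 and 7 counts among LLRCs and 5, 2, 0 and 1 in non-LRC cells. In CPM each LLRC level of Hmga2 lay above each non-LRC level, as in 2.15% of all genes tested.

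Most other mesenchymal genes that were tested had lower levels in LLRCs, as Vim did. Of 39, 21 were tested, 15 lower and 6 higher in LLRCs, with a median of -1.47. Of the lower ones, 6 had an unadjusted p below 0.05, which 3.56% of all genes tested had in that direction. In Timp3 (-1.90, adjusted p = 0.358 by the edgeR quasi-likelihood method) and Sparc (-0.62) each LLRC level lay under each non-LRC level, as in 1.91% of all genes tested. The lowest were Tagln (-3.41) and Myl9 (-3.36), actin-associated genes of smooth muscle, and the highest were Cdh2, which encodes N-cadherin (0.82), and Vcan, a matrix proteoglycan (2.31). Acta2, a smooth muscle actin gene, and Col1a1, a collagen gene, did not pass the filter. Acta2 stood at 1.84, 0.591, 0.294 and 1.22 CPM among LLRCs and at 0.501, 0.418, 46.7 and 10.9 CPM among non-LRC cells. Col1a1 stood at 0.775, 1.06, 0.735 and 0.888 CPM among LLRCs and at 0.125, 1.88, 14.8 and 4.34 CPM among non-LRC cells. For both the groups overlapped, and the highest level was in the non-LRC library of JV624. The LLRC library was the higher one in JV602 and JV621 for Acta2 and in JV602 for Col1a1.

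On the epithelial side, 10 of the 11 tested of 16 other epithelial regulators were higher in LLRCs and 1 was lower, with a median of 0.48. The highest was Foxa1, a pioneer factor of endodermal cells, at 1.75 with a standard error of 0.62 (adjusted p = 0.778 by the edgeR quasi-likelihood method), followed by Grhl1 (0.91). The lowest were Klf4 (-0.84) and Klf5 (0.02), and Grhl2 was at 0.73 and Ovol2 at 0.51. All 32 epithelial junction and surface genes were tested, 24 higher and 8 lower, with a median of 0.16, from Marveld3 (-0.56) and Tjp1 (-0.45) to Tjp3 (0.85) and Dsc2 (1.49). In Foxa1 and Dsc2 each LLRC level lay above each non-LRC level, as in 2.15% of all genes tested. Cdh1, the E-cadherin gene that ZEB and SNAIL factors repress, stood at 791.4 ± 28.0 CPM among LLRCs and 651.8 ± 302.6 CPM among non-LRC cells (SD, n = 4 each), a log2 fold change of 0.28. Krt19, a keratin of cholangiocytes, differed by -0.20 on the log2 scale.

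The partners and inputs of the members were read as well. Of 14 ZEB and SNAIL corepressors and partners, 13 were tested, 10 higher and 3 lower, with a median of 0.19, from Hdac1 (-0.44) and Rcor1 (-0.28) to Fbxl14 (0.67) and Ctbp2 (0.99). Of 18 genes for TGF-beta and BMP receptors, ligands and Smads, which signal upstream of EMT factors, 17 were tested, 8 higher and 9 lower, with a median of -0.18. Of these, 3 lower (Smad6, Tgfbr2 and Tgfb2) and 0 higher had an unadjusted p below 0.05, which 3.56% and 1.6% of all genes tested had. In 1 gene, Tgfb3, each LLRC level lay under each non-LRC level, as in 1.91% of all genes tested. They ran from Smad6 (-1.85) and Tgfbr2 (-1.60) to Smad2 (0.79) and Tgfbr1 (1.03). Of 11 mesenchymal-side splicing regulators, whose work opposes that of the ESRP proteins at shared exons, 7 were tested, 4 higher and 3 lower, with a median of 0.00, from Mbnl1 (-0.70) and Rbfox2 (-0.40) to Mbnl2 (0.04) and Celf2 (0.71). The 5 genes of the miR-200 family and Mir205, all for microRNAs that target ZEB transcripts, had 1 count in all 8 libraries together, in Mir200b, and mature microRNAs were not analysed here.

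**Figure D5:**
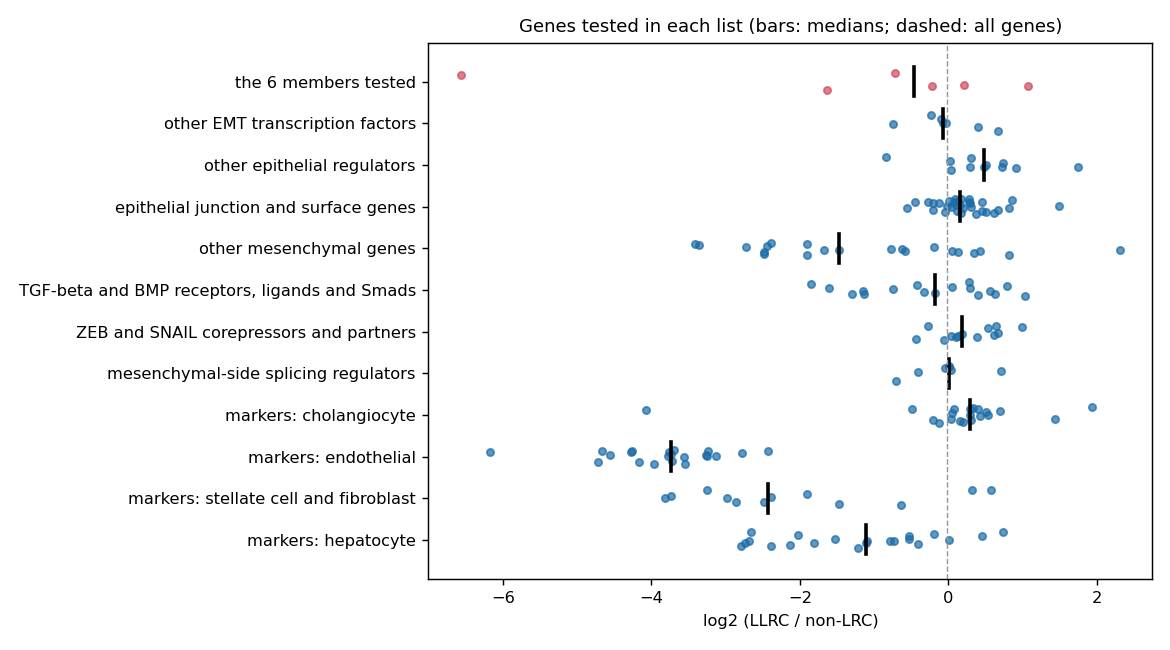
Log2 fold change of LLRCs over non-LRC cells for each tested gene of the 6 members (red) and of 11 lists (blue), with the median of each as a black bar and the median of all genes tested as a dashed line. The median is -3.73 for endothelial markers, -2.43 for stellate cell and fibroblast markers and -1.47 for other mesenchymal genes, and it lies between -0.18 and 0.48 for the other lists of the EMT program.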

How the data were processed

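RNA was sequenced from LLRC and non-LRC cells of 4 mice. The authors sorted the cells, isolated RNA with a PicoPure kit, had reads mapped by a service, and counted them with HTSeq (union mode, strand ignored) over Ensembl exons of build GRCm38.p4. The aligner was not given in the sources used here. The deposited values are raw counts for 46603 genes, not normalized. A deposited comparison table by the authors (edgeR 3.2.4) holds fold changes and p-values and was not used here.

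Symbols, coordinates and exon lengths came from GENCODE M21 of GRCm38 (46091 identifiers matched, 512 did not). Genes were filtered with filterByExpr (13605 remained), scaled by TMM and tested by the quasi-likelihood method of edgeR (version 4.0.16, R 4.3.3; group as the only term; Benjamini-Hochberg, threshold 0.05). DESeq2 1.42.0, limma 3.58.1, other filters and scalings, the mouse as a block, libraries left out and, chosen after seeing the data, thinning and the removal of 2 non-LRC libraries were alternatives. Fits were checked on simulated counts. Members and lists were chosen with earlier results of these data known. All members are named, and, from the lists of the EMT program, the 2 highest and the 2 lowest tested genes. A fixed set of further genes (Cdh1, Cdh2, Epcam, Ptprc, Krt19, Pecam1, Pdgfrb, Col1a1, Acta2, Alb, Grhl2, Ovol2 and Tcf4) is named as well. Of the cell type marker lists the extremes are not named by rule. Spp1, Rgs5, S100a8, Aqp1, Apoa2, Apoc3, Tgfb2, Tgfb3, Prrx1, Twist2, Foxc2 and Gsc were named after their values were seen. So were Dcn, Fcer1g, Ggt1, Cftr, Timp3, Sparc and Hmga2. Cdh5, Tek, Flt1, Eng, Esam and Cldn5 are named because the study names them. The libraries of a mouse come from 1 animal, so they are paired. The deviations of paired libraries from their group means had correlations of 0.0998 in JV602, 0.0798 in JV621, 0.00831 in JV624 and 0.173 in JV6314.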

Additional observations from a re-analysis of the deposited data

Results flagged for a closer look

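Dixon's test was applied to the 20 groups of 4 libraries that the members give, and chance marks about 1 in 20 groups of continuous values. It marked 1 library in 4 groups, but in 3 of these the other 3 libraries were at 0 counts, where any read is marked, so that the number 4 cannot be set against that rate. Zeb2 was at 383.2 CPM (1835 counts) in the non-LRC library of JV621, against 22.3 to 59.0 CPM in the other non-LRC libraries. Snai2 was at 6.88 CPM (62 counts) in the LLRC library of JV6314, against 0 in the other LLRC libraries. Twist1, at 0.197 CPM in the non-LRC library of JV6314, and Ovol1, at 0.125 CPM in that of JV602, met the same test on 1 count each, against 0 in the other non-LRC libraries.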

How the results depend on the processing

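No gene passed the threshold in edgeR's quasi-likelihood test (702 genes at an unadjusted p below 0.05). Without the expression filter 11 passed, with DESeq2 221, with edgeR's exact test 159, with its likelihood ratio test 171, and with limma-voom 0 (891 at an unadjusted p below 0.05). With single libraries or mice left out, 0 to 6 passed, 6 of them without the non-LRC library of JV602, and 1 passed without the non-LRC libraries of JV621 and JV6314. Of the members, 1 (Zeb2) passed with DESeq2, with the exact test and with the likelihood ratio test, and 0 under each other alternative. With the replicate block (the mouse), which respects the pairing, 0 genes and 0 members passed (569 genes at an unadjusted p below 0.05), and Zeb2 was at -6.46 and Vim at -1.47 on the log2 scale. The block changed no call.

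With a mouse left out, the members without overlap numbered 1 to 3 and those with 1 direction in every mouse 2 to 4. Among all genes tested, such calls also became more common, from 4.06% to between 9.67% and 14.2% without overlap and from 13.3% to between 22.9% and 28.2% with 1 direction. Without JV602 the former were Zeb2 and Vim (lower) and Esrp2 (higher). Without JV621 they were Zeb2 (lower) and Ovol1 (higher), and without JV6314 Zeb2 and Vim. With single libraries or mice left out, Zeb1 ran from -0.67 to 0.19. Its sign turned without the LLRC library of JV602 (0.07), without the non-LRC library of JV621 (0.19), without JV621 (0.16) and without the non-LRC libraries of JV621 and JV6314 (0.40), and that of Esrp1 turned under the last (0.86). The cause was not tested. Zeb2, Vim, Fn1 and Esrp2 kept their sign under all 24 alternatives. The median log2 fold change of all genes was -0.01, and 0.16 with limma-voom and 0.14 with the block. The 3-count limit of 0.291 to 0.626 CPM bounds what can be said of members at 0 counts.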
